A study of Homo sapiens with 4 samples.

Results

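The 10 genes described here encode the receptors of the epidermal growth factor family that bronchial epithelial cells can use, the ligands that are cut from the surface of the same cells, the enzyme that cuts them and an inhibitor of the receptors. They were chosen by symbol: EGFR, ERBB2 and ERBB3 (receptors), AREG, EREG, HBEGF, TGFA and BTC (ligands), ADAM17 (sheddase) and ERRFI1 (inhibitor). All 10 were found among the 24424 gene symbols counted in every library.

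The RNA came from the human cell line BEAS-2B, bronchial epithelium immortalised with viral genes, and filled 4 libraries with 1 library per condition. Control cells received nothing. LPS cells received lipopolysaccharide, a component of the outer membrane of gram-negative bacteria, for 2 h. WT PDZ+LPS cells received a peptide from a PDZ domain of the tight junction protein ZO-1 for 24 h and then LPS for 2 h, and mut PDZ+LPS cells received a mutated form of that peptide on the same schedule. Both peptides were joined to a TAT sequence that carries them into cells. All cells were wild type and grew in a bronchial medium with its supplement kit, which as sold contains EGF. No library held peptide without LPS, and none held the carrier sequence alone. LPS/Control thus shows the genes after 2 h of LPS. The comparisons of the peptide libraries with LPS show how levels under LPS differed with each peptide. Without a library of peptide alone, they cannot tell an altered response from a change already present before LPS.

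Ligands of the EGF family are made as membrane proteins, and ADAM17 and related proteases release them to act on the cell that made them or on its neighbours. Ligand binding pairs the receptors, and the pairs signal through Ras and ERK and through PI3K and AKT. ERRFI1 (also called MIG6) and the LRIG, SPRY and DUSP proteins restrain this signal, and several of them are transcribed in answer to it. In airway epithelium the system is known for wound closure, mucus production and the release of interleukin-8 after contact with bacterial products.

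With 1 library per condition, differences have no check against replicates and carry no p-value. Counts were divided by a size factor per library to give normalized counts, and differences are log2 fold changes with 1 normalized count added to both libraries. Values in parentheses after a fold change are 95% intervals for counting error between 2 libraries (exact binomial), not between conditions. A gene is said to have risen or fallen where it differed at least 2-fold and had at least 16 normalized counts in at least one of the 2 libraries. Values in 4 libraries are given in the order Control, LPS, WT PDZ+LPS, mut PDZ+LPS. Comparisons that share a library are not independent of each other.

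The totals lay between 19682929 counts, in the mut PDZ+LPS library, and 25155647, in the LPS library, so the mut PDZ+LPS library was the shallowest. All 9 epithelial markers examined, among them the keratins KRT5, KRT8 and KRT18, had at least 16 normalized counts in each library, and their sum ranged from 37014 to 55832, with the highest in mut PDZ+LPS. That sum was mostly KRT8, KRT17 and KRT18 and does not stand for each marker, since CDH1 was lowest in mut PDZ+LPS. None of the marker sums was corrected for transcript length. Of 7 leukocyte markers 2 reached 16 normalized counts (CD14 and CD68), PTPRC had 0 counts throughout, and the sum ranged from 731 to 897. Of 4 endothelial markers 1 did (KDR), with sums of 25 to 32. Of 7 fibroblast or mesenchymal markers 2 did (VIM and COL1A1), COL3A1 and LUM had 0 counts, and the sum ranged from 21095 to 25407, nearly all of it VIM. In bulk RNA, fewer cells that express a gene and less RNA per cell cannot be told apart.

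The 4 genes of the set that rose with LPS were EREG, AREG, HBEGF and EGFR, and the 250 bases before their start sites are shown so that the letters ahead of these genes can be compared (RefSeq, GRCh38.p14, 5′ to 3′ on the strand of the gene). The windows are chr4:74364895-74365144 (EREG, plus strand), chr4:74444886-74445135 (AREG, plus strand), chr5:140346604-140346853 (HBEGF, minus strand) and chr7:55018767-55019016 (EGFR, plus strand). The authors mapped to hg19, so these coordinates belong to the sequences alone. Capitals mark matches to a TATA box (TATAAA) or a cyclic AMP response element (TGACGTCA).
EREG: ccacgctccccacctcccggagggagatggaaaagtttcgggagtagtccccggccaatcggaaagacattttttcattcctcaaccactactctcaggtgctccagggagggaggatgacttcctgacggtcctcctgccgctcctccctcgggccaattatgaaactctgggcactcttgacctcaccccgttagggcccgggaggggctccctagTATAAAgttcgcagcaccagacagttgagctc
AREG: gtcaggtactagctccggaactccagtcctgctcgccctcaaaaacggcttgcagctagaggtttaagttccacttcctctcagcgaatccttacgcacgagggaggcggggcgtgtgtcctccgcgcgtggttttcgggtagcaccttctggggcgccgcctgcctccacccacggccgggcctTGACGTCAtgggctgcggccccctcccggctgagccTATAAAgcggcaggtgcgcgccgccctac
HBEGF: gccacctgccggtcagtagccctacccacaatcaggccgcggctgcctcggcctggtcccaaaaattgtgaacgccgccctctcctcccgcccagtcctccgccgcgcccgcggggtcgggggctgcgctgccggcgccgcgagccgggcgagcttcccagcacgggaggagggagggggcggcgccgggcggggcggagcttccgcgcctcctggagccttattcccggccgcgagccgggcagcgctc
EGFR: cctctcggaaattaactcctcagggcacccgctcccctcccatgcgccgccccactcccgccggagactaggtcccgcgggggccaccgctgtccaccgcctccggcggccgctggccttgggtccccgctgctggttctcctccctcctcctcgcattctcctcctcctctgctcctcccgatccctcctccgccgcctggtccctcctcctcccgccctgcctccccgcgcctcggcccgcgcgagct

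Both EREG and AREG carried a TATA box close to the start, 32 and 29 bases before it, and AREG also carried a cyclic AMP response element 65 bases before it. The EGFR and HBEGF windows held neither, and their GC content was 73.6% and 76.4%, against 58.0% in EREG and 65.2% in AREG. Windows were searched on both strands for those letters, for the AP-1 letters TGANTCA and for the NF-kB consensus. Of 35116 RefSeq promoter windows, 10.7% held the TATA letters, 1.65% the cyclic AMP element, 6.57% the AP-1 letters and 9.96% the NF-kB consensus. No NF-kB or AP-1 match lay in the windows of the 4 genes. The NF-kB consensus matched in TGFA, BTC and ADAM17, the AP-1 letters matched in ERBB2 and nothing matched in ERRFI1, while ERBB3 was not analysed here. EREG, AREG and BTC are also neighbours on chromosome 4 in RefSeq, in the order EPGN, EREG, AREG, BTC, with EPGN being a further EGF ligand.

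The receptors differed in how they behaved under LPS. EGFR, the receptor of every ligand in the set, rose from Control to LPS. Its counts were 2990, 5673, 5334 and 2011, which gave 2602, 5336, 5386 and 2363 normalized counts. The LPS and WT PDZ+LPS libraries stood high and close together, and the Control and mut PDZ+LPS libraries stood low. The log2 fold change was 1.04 (0.97 to 1.10) for LPS/Control and 1.05 (0.99 to 1.11) for WT PDZ+LPS/Control. Both lay at the edge of 2-fold, and they were 0.905 and 0.917 with total-count scaling and 0.97 and 0.99 with upper-quartile scaling, short of it. WT PDZ+LPS and LPS differed by 0.013 (-0.041 to 0.068), an interval that includes 0. In mut PDZ+LPS, EGFR was 2.26-fold lower than in LPS, a log2 fold change of -1.17 (-1.25 to -1.10), and it was the only member that fell in that comparison. Against Control the mut PDZ+LPS library was lower by a small amount, at -0.14 (-0.22 to -0.057).

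ERBB2, the receptor that binds no ligand itself and pairs with the others, had 2440, 2652, 2412 and 2096 normalized counts. Its values stayed within a narrow range, with log2 fold changes of 0.12 (0.044 to 0.20) for LPS/Control and -0.34 (-0.43 to -0.25) for mut PDZ+LPS/LPS. The sign of the LPS/Control value turned, to -0.012, when libraries were scaled by their total counts. ERBB3, the receptor of neuregulins whose own kinase is weak, had 202, 117, 126 and 78 counts, or 175.8, 110.1, 127.2 and 91.65 normalized counts. All 3 LPS libraries lay below Control, by log2 fold changes of -0.67 (-1.02 to -0.34), -0.46 (-0.80 to -0.14) and -0.93 (-1.34 to -0.56). None of these reached 2-fold, though the last was -1.03 with total-count scaling and -1.02 with a correction by median transcript length, both past it. The other corrections made it smaller, at -0.64 for length and GC content, -0.68 for length alone and -0.63 for coding length. The intervals of the peptide libraries against LPS included 0. ERBB4, the remaining receptor of the family, had 0 counts in all 4 libraries, which allows up to 3 counts in each.

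Levels can be compared between genes only per length, and here normalized counts were divided by the length in kilobases of the longest protein-coding transcript. In Control, ERBB2 stood at 509 normalized counts per kb, EGFR at 265 and ERBB3 at 29.7. With LPS the first 2 receptors came close, at 553 for ERBB2 and 543 for EGFR, and in mut PDZ+LPS they stood apart again at 437 and 241. The order rests on the transcript chosen, since the longest EGFR transcript has 9821 nt and the median of its 8 coding transcripts has 3844 nt. The mut PDZ+LPS library also counted long transcripts lower, as described below. The levels per kb were not corrected for that, and the ERBB2 transcript is shorter, at 4792 nt.

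**Figure D1:**
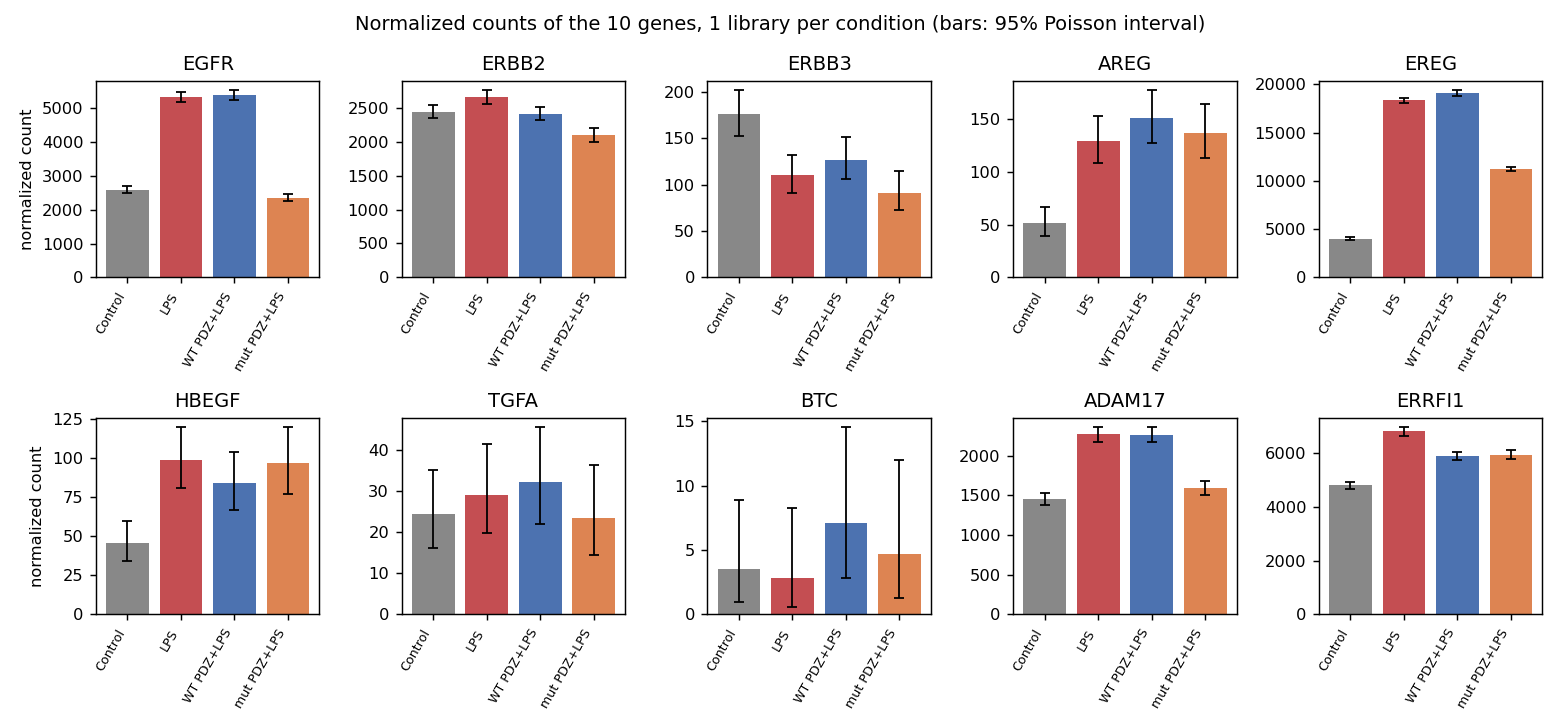
Normalized counts (y axis, starting at 0, with its own scale in each panel) of the 10 genes in the 4 libraries (x axis), 1 library per condition. Error bars are 95% Poisson intervals and cover counting error only. EGFR, EREG and ADAM17 were high in LPS and WT PDZ+LPS and lower in mut PDZ+LPS, while AREG and HBEGF were at similar heights in all 3 LPS libraries.

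EREG, which encodes epiregulin, a ligand of EGFR and ERBB4, was by far the most abundant ligand and had the highest fold change of the set with LPS. It had 4633, 19521, 18921 and 9542 counts, or 4032, 18363, 19106 and 11212 normalized counts. The LPS and WT PDZ+LPS libraries were the highest, the mut PDZ+LPS library lay between them and Control, and the counting intervals of the 4 levels did not overlap. It rose 4.55-fold in LPS/Control, a log2 fold change of 2.19 (2.14 to 2.23). In the peptide libraries it rose against Control too, by 2.24 (2.20 to 2.29) with the WT and by 1.48 (1.42 to 1.53) with the mutant peptide. Against LPS, the WT PDZ+LPS value was 0.057 (0.028 to 0.086) and the mut PDZ+LPS value was -0.71 (-0.75 to -0.68), which is 1.64-fold lower and short of 2-fold. Per kb, EREG stood at 873, 3980, 4140 and 2430 normalized counts, which placed it at rank 1764, 299, 278 and 624 among 12142 genes.

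AREG, which encodes amphiregulin, a ligand of EGFR, had 59, 137, 149 and 116 counts, or 51.35, 128.9, 150.5 and 136.3 normalized counts. Control was the lowest library and the 3 LPS libraries overlapped in their counting intervals. It rose in each of them against Control, by log2 fold changes of 1.31 (0.88 to 1.79), 1.53 (1.11 to 2.01) and 1.39 (0.94 to 1.89). Against LPS the values were 0.22 (-0.12 to 0.57) with the WT peptide and 0.080 (-0.29 to 0.45) with the mutant, and both intervals include 0. The hg19 assembly holds a near-identical copy of AREG, and no separate symbol for it was listed, so the AREG counts are uncertain to the extent that reads were split between the copies.

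HBEGF, which encodes a heparin-binding ligand of EGFR and ERBB4, had 52, 105, 83 and 82 counts, or 45.26, 98.77, 83.81 and 96.35 normalized counts. It rose 2.18-fold in LPS/Control, at 1.11 (0.63 to 1.63), and 2.13-fold in mut PDZ+LPS/Control, at 1.07 (0.57 to 1.62). Both values were 0.98 with total-count scaling, just short of 2-fold. The WT PDZ+LPS library lay between, at 0.88 (0.37 to 1.42) above Control, which did not reach 2-fold. Both peptide libraries were close to LPS, at -0.23 (-0.67 to 0.19) and -0.036 (-0.47 to 0.40), so the low counts cannot show a difference of that size.

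TGFA, a ligand of EGFR, had 28, 31, 32 and 20 counts, and its LPS/Control value was 0.25 (-0.53 to 1.05). BTC, which encodes betacellulin, had 4, 3, 7 and 4 counts and did not reach 16 normalized counts in any library. Neither ligand showed a difference that was detectable at this depth, and BTC was the only one of the 10 genes under a mean of 16 normalized counts. In the LPS library the ligands stood, per kb, at 3980 normalized counts for EREG, 104 for AREG, 41.4 for HBEGF and 6.77 for TGFA. The same order held in the other libraries, with AREG at 41.4, 121 and 110 and HBEGF at 19.0, 35.1 and 40.4 in Control and the WT and mutant peptide libraries.

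ADAM17, the protease that releases AREG, EREG, HBEGF and TGFA, had 1669, 2413, 2239 and 1356 counts, or 1453, 2270, 2261 and 1593 normalized counts. Like EGFR and EREG, it was high in LPS and WT PDZ+LPS, and the mut PDZ+LPS library lay nearer to Control. The LPS/Control value was 0.64 (0.55 to 0.74), or 1.56-fold, which is short of 2-fold but beyond counting error. WT PDZ+LPS and LPS differed by -0.0057 (-0.089 to 0.078), whereas mut PDZ+LPS/LPS was -0.51 (-0.61 to -0.41).

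ERRFI1, the inhibitor that binds the kinase of EGFR, had 5528, 7258, 5846 and 5071 counts, or 4811, 6827, 5903 and 5958 normalized counts. It was highest in LPS, lowest in Control, and nearly equal in the 2 peptide libraries. LPS/Control was 0.51 (0.45 to 0.56), a 1.42-fold difference. The peptide libraries stood below LPS, at -0.21 (-0.26 to -0.16) for WT PDZ+LPS and -0.20 (-0.25 to -0.14) for mut PDZ+LPS. The mutant and WT peptide libraries differed by 0.013 (-0.041 to 0.068), the smallest such value among the 9 members, BTC left out. After a correction for length and GC content, ERRFI1 was -0.21 in WT PDZ+LPS/LPS and -0.10 (-0.15 to -0.050) in mut PDZ+LPS/LPS, and the peptide libraries differed by 0.11 (0.051 to 0.16). Per kb it was the most abundant member in Control, at 1550 normalized counts.

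**Figure D2:**
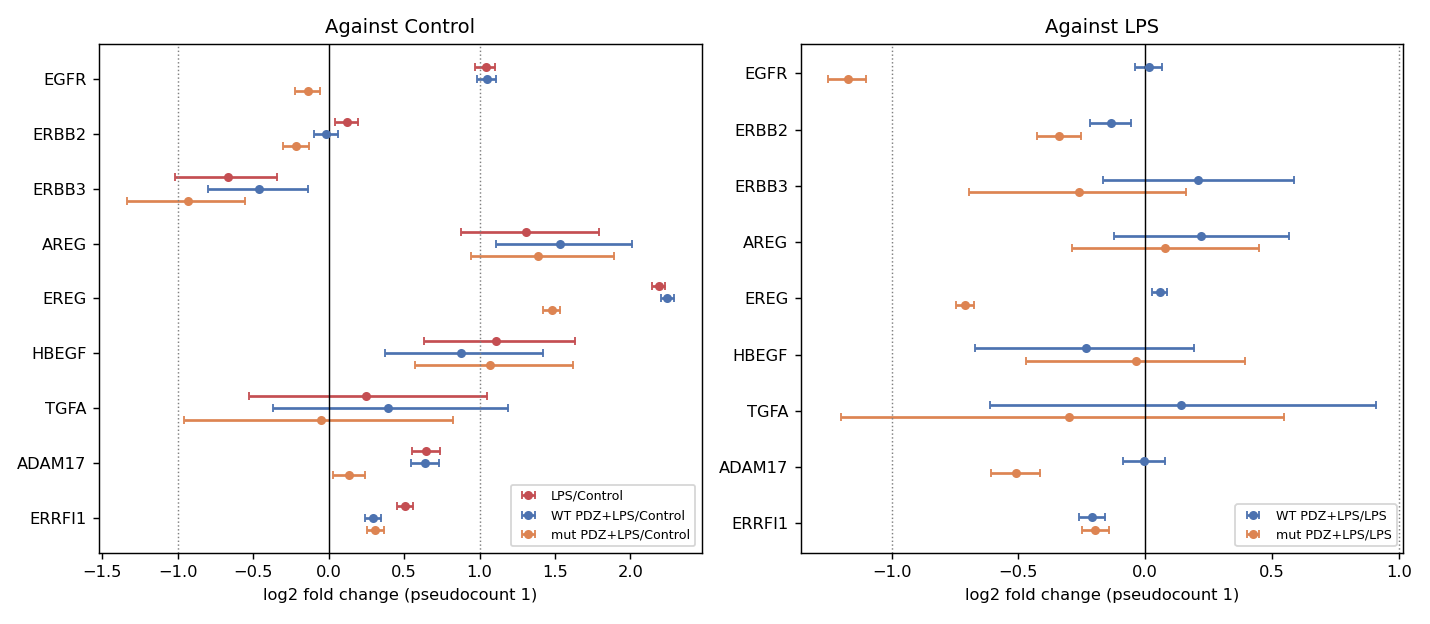
Log2 fold changes (x axis) of 9 members, BTC left out for its low counts, against Control (left) and against LPS (right). Bars are 95% exact binomial intervals for counting error between 2 libraries, and dotted lines mark 2-fold. The mut PDZ+LPS points of EGFR (-1.17), EREG (-0.71) and ADAM17 (-0.51) lie left of the WT PDZ+LPS points against LPS, and those of AREG and HBEGF overlap them.

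Counted over the set, 4 of 10 members rose in LPS/Control (EGFR, AREG, EREG, HBEGF) and none fell. Of 13277 genes above the level threshold, which 9 of the 10 members reached, 4.87% changed in either direction. The members, like the pathway lists below, were chosen with earlier results of these data known. The shares of all genes therefore stand beside the counts as description and test nothing. In WT PDZ+LPS/Control 3 rose (EGFR, AREG, EREG), against 4.7% of genes, and 3 rose with the mutant peptide (AREG, EREG, HBEGF), against 8.09%. In WT PDZ+LPS/LPS 0 members changed, where 1.37% of genes did, so a count of 0 among 9 members above the level threshold is near the background. In mut PDZ+LPS/LPS 1 member fell (EGFR), against 3.95%. The mutant against the WT peptide library (mut PDZ+LPS/WT PDZ+LPS) also had 1 that fell (EGFR), against 4.26%. The median log2 fold change of the 9 members was 0.64 in LPS/Control, where the median of all genes was -0.001. It was -0.30 in mut PDZ+LPS/LPS, where the median of all genes was -0.023, and 0.013 in WT PDZ+LPS/LPS, where it was 0.0075.

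The EGFR value in the mut PDZ+LPS library has to be read beside transcript length. Across 12142 genes, Spearman's rho between the log2 fold change and the length of the longest coding transcript was -0.604 for the mutant peptide library against LPS, -0.613 against WT PDZ+LPS and -0.453 against Control. The comparisons without that library gave 0.155 for LPS/Control, 0.184 for WT PDZ+LPS/Control and 0.0743 for WT PDZ+LPS/LPS. These are descriptions across genes, which share their libraries and are not replicates. Genes with long transcripts were thus counted lower in the mut PDZ+LPS library, and short ones higher.

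EGFR, with 9821 nt, belongs to the 10% of genes with the longest transcripts (1215 genes, 7623 nt and up). In mut PDZ+LPS/LPS that group had a median of -0.47, and 10% of its genes lay below -0.95, so the EGFR value of -1.17 lay beyond that mark. AREG, with 1240 nt, belongs to the shortest group (312 to 1488 nt), whose median was 0.40 and whose 10% mark was 0.041, next to its own value of 0.080. EREG, ADAM17, ERBB2 and TGFA fell in 1 group of 4099 to 4800 nt, with a median of -0.18 and a 10% mark of -0.57. EREG, at -0.71, lay below that mark, ADAM17, at -0.51, lay above it, and the other members of the group lay nearer its median.

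**Figure D3:**
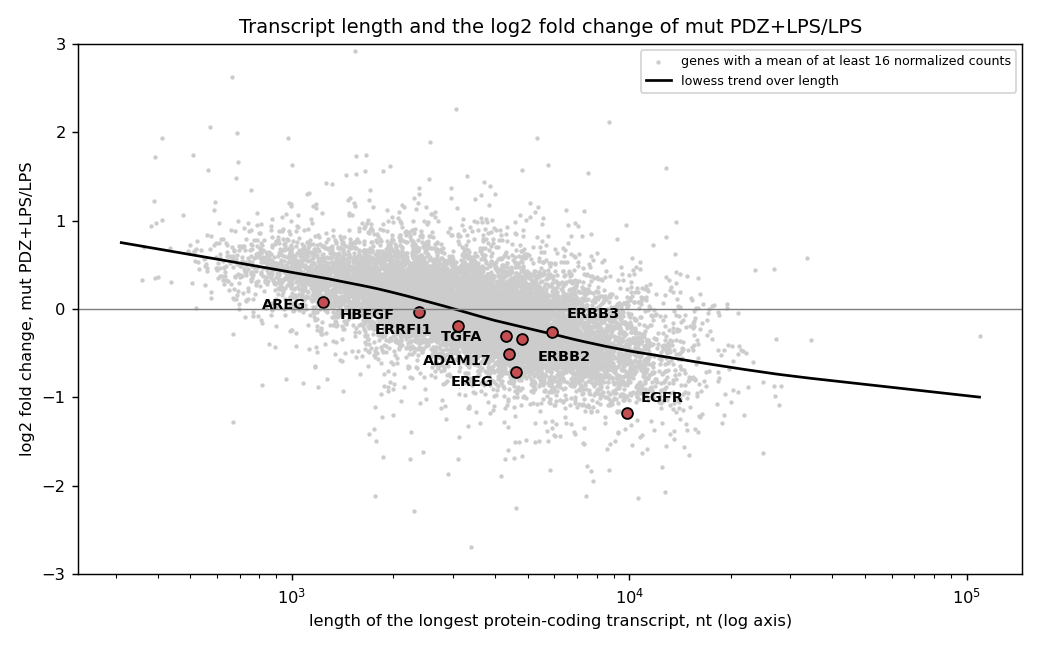
Log2 fold change of mut PDZ+LPS/LPS (y axis) against the length of the longest protein-coding transcript in nt (x axis, log scale). Grey points are genes averaging 16 normalized counts or more, red points are the members and the black line is the lowess trend. EGFR (9821 nt, -1.17) lies below the trend, which is -0.47 at its length, and AREG (1240 nt, 0.080) lies below the trend of 0.35 at its own.

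When the trend over length and then over GC content was subtracted, 0 members remained past 2-fold in mut PDZ+LPS/LPS, against 1.45% of genes. The same count was 0 between the peptide libraries, against 1.51%, and 3 against Control (AREG, EREG and HBEGF), where 5.25% of genes passed. EGFR remained below LPS, at -0.63 (-0.70 to -0.55), and below WT PDZ+LPS, at -0.61 (-0.69 to -0.54). Its value against Control turned from -0.14 to 0.34 (0.26 to 0.42), so that EGFR in the mut PDZ+LPS library lay between Control and LPS after the correction and below Control before it. How much was removed depended on the length used. The mut PDZ+LPS/LPS value of EGFR was -0.71 with length alone, -0.78 with the coding length and -0.91 with the median transcript length, all of them on the same side of 0.

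EREG moved less, from -0.71 to -0.51 (-0.54 to -0.47), and ranged from -0.77 to -0.35 over the other length measures. ADAM17 went from -0.51 to -0.26 (-0.36 to -0.16) against LPS and from 0.13 to 0.37 (0.26 to 0.47) against Control, so that it lay nearer LPS after the correction and nearer Control before it. Against LPS ERBB2 went from -0.34 to -0.24 (-0.33 to -0.15). AREG, being short, went the other way, from 0.080 to -0.18 (-0.55 to 0.18). Against WT PDZ+LPS it went from -0.14 (-0.51 to 0.22) to -0.43 (-0.79 to -0.067), an interval that no longer includes 0. That value was -0.51 with length alone, -0.18 with the coding length and -0.19 with the median transcript length. With the correction the LPS/Control value of EGFR, which started just past 2-fold, became 0.98 and no longer passed, as did its WT PDZ+LPS/Control value of 0.97. Since the mutant peptide was given to 1 library, the peptide and whatever made that library differ by length cannot be told apart.

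**Figure D4:**
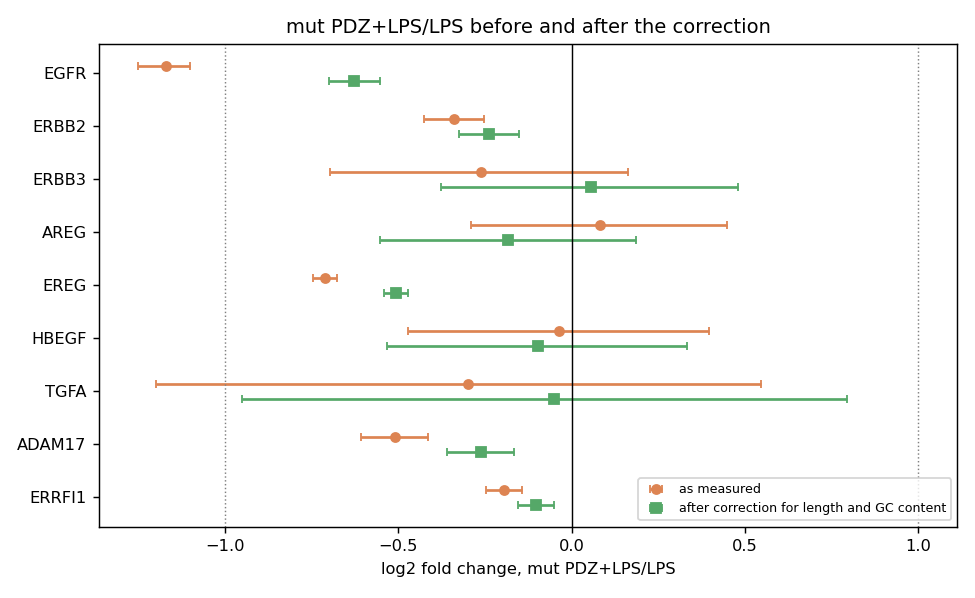
Log2 fold change of mut PDZ+LPS/LPS (x axis) for 9 members as measured (circles) and after the trends over transcript length and GC content were subtracted (squares), with 95% intervals for counting error and dotted lines at 2-fold. EGFR moved from -1.17 to -0.63 and EREG from -0.71 to -0.51, and both intervals stayed below 0.

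EGFR-AS1, an RNA listed by its own symbol and transcribed from the opposite strand of the EGFR locus, had 16, 55, 57 and 59 counts, or 13.93, 51.74, 57.56 and 69.32 normalized counts. It rose against Control in all 3 LPS libraries, by log2 fold changes of 1.82 (1.07 to 2.8), 1.97 (1.23 to 2.95) and 2.24 (1.5 to 3.21). Unlike EGFR it was not lower in mut PDZ+LPS than in LPS, at 0.42 (-0.13 to 0.98). No transcript length was found for EGFR-AS1, so this value was not corrected for length, whereas that of EGFR went from -1.17 to -0.63. The library kit marks the strand, but whether the counting used it is not given in the sources used here, and without strand the reads of the pair cannot be told apart.

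The rest of the pathway was described by 66 genes in 8 lists, of which 59 averaged 16 normalized counts or more. In LPS/Control 7 rose and 3 fell, where 4.87% of all genes changed, and the median of the 59 was 0.12. In WT PDZ+LPS/LPS 0 changed, where 1.37% of all genes did, and the median was 0.016. In mut PDZ+LPS/LPS 1 fell, the Ras effector kinase BRAF, where 3.95% of all genes changed, and the median was -0.19, or -0.10 after the length correction.

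Among the other ligands, EPGN (epigen), the neighbour of EREG, had 17, 33, 37 and 14 counts. It rose in LPS/Control, at 1.02 (0.18 to 2.01), and with the WT peptide against Control, at 1.28 (0.47 to 2.26), and it fell in mut PDZ+LPS/WT PDZ+LPS, at -1.14 (-2.19 to -0.26). Its Control and mut PDZ+LPS levels were both low, at 14.8 and 16.45 normalized counts, and its other levels were 31.04 and 37.36. The EPGN transcript has 1196 nt, and its value in the last comparison was -1.44 after the length correction. That correction also carried EPGN past 2-fold in mut PDZ+LPS/LPS, from -0.88 to -1.18. NRG1, a ligand of ERBB3, had 2, 10, 14 and 4 counts and no library with 16 normalized counts. NRG2 had 109, 80, 63 and 69 counts, NRG4 had 26, 36, 18 and 29, and neither changed 2-fold in any comparison. EGF and NRG3 had 0 counts in all 4 libraries, which allows up to 3 counts in each.

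Of the 10 other proteases and partners of ADAM17, 9 reached the level threshold in LPS/Control. ADAM19 was the only one of the 10 to change. It had 26, 7, 7 and 10 counts and reached the threshold only in Control, at 22.63 normalized counts. Its log2 fold change was -1.64 (-3.23 to -0.54) in LPS/Control and -1.55 (-3.13 to -0.44) in WT PDZ+LPS/Control. Of all genes, 4.87% and 4.7% changed in these comparisons. ADAM8 had 19, 35, 24 and 25 counts, ADAM12 had 7, 1, 5 and 6, and ADAM15 had 3437, 3725, 3765 and 3507 normalized counts. ADAM10, the main sheddase of EGF and BTC, had 3902, 4155, 4158 and 3157 normalized counts, and ADAM9 had 7411, 8148, 8465 and 5585. Their mut PDZ+LPS/LPS values were -0.40 (-0.47 to -0.33) and -0.55 (-0.60 to -0.49), near that of ADAM17. After the length correction ADAM10, whose transcript has 11431 nt, stood at 0.16 and ADAM9 at -0.37. RHBDF2, which carries ADAM17 to the cell surface, had 505.7, 603.9, 660.4 and 772 normalized counts. Its LPS/Control value was 0.26 (0.092 to 0.42) and its mut PDZ+LPS/Control value was 0.61 (0.45 to 0.77). The latter was 0.475 (0.313 to 0.639) after the correction for length and GC content and 0.267 with the median transcript length.

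The feedback inhibitors went both ways in LPS/Control, where 1 of 13 rose and 2 fell and 4.87% of all genes changed. LRIG1, a membrane protein that promotes the breakdown of ERBB receptors, had 821, 4050, 3311 and 2849 counts and rose in all 3 LPS libraries, 5.33-fold in LPS/Control (2.41 on the log2 scale, 2.31 to 2.52). Both peptide libraries lay at -0.19 against LPS, and after the length correction the WT value was -0.19 and the mutant value 0.040, so the direction of the latter turned. SPRY2, an inhibitor of Ras signalling, had 2470, 1002, 955 and 713 counts and fell in all 3, by 1.19, 1.16 and 1.36 on the log2 scale. SPRY1 had 171, 63, 76 and 65 counts, and fell in LPS/Control at -1.31 (-1.77 to -0.90), with -0.95 in each peptide library against Control.

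Of 10 genes known to answer ERK signalling, 5 rose in LPS/Control and 0 fell, where 4.87% of all genes changed. They were the transcription factor gene FOSL1 (1.29), the early response gene IER3 (1.96), the phosphatase genes DUSP5 (1.47) and DUSP6 (1.56), and PHLDA1 (1.80). The same 5 rose in both peptide libraries against Control, where 4.7% (WT PDZ+LPS) and 8.09% (mut PDZ+LPS) of all genes changed. EGR1 and FOS, which peak early after a stimulus, did not rise, with LPS/Control values of -0.95 (-1.02 to -0.87) and -0.26. DUSP4, ETV4 and ETV5 also stood lower in LPS than in Control, short of 2-fold. Their normalized counts in Control and LPS were 3971 and 3225 (DUSP4), 427.3 and 331.1 (ETV4), and 866 and 796.8 (ETV5). Of the 10 genes, 5 thus lay above Control in LPS and 5 below it. In mut PDZ+LPS/LPS the short genes IER3 (1350 nt) and FOSL1 (1669 nt) stood at 0.63 and 0.67, or at 0.22 and 0.29 after the length correction. PHLDA1, with 8069 nt nearly as long as EGFR, stood at -0.061 (-0.11 to -0.015) before and 0.43 after it.

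The core of the pathway was described by 9 adaptors and ubiquitin ligases, 10 Ras-MAPK genes and 7 PI3K-AKT genes. None of them changed in LPS/Control or in WT PDZ+LPS/LPS. Of all genes, 4.87% and 1.37% changed in these comparisons, so the counts of 0 are near the background. Only 8 of the 9 adaptors and ubiquitin ligases reached the level threshold, since CBLC had 3, 4, 2 and 3 counts. BRAF (9578 nt) had 267, 285, 287 and 111 counts and fell in mut PDZ+LPS/LPS, at -1.03 (-1.37 to -0.72). CBL (11231 nt), the ubiquitin ligase of EGFR, fell in mut PDZ+LPS/WT PDZ+LPS, at -1.08 (-1.17 to -0.99). The adaptor gene GAB1 and the PI3K subunit gene PIK3R1 fell in mut PDZ+LPS/Control, at -1.06 (-1.35 to -0.78) and -1.14 (-1.22 to -1.07). All 4 have long transcripts, and after the correction for length and GC content their values were -0.51, -0.46, -0.66 and -0.76, short of 2-fold. With the median transcript length GAB1 stayed past 2-fold, at -1.02, and BRAF and CBL stood at -0.865 and -0.831.

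**Figure D5:**
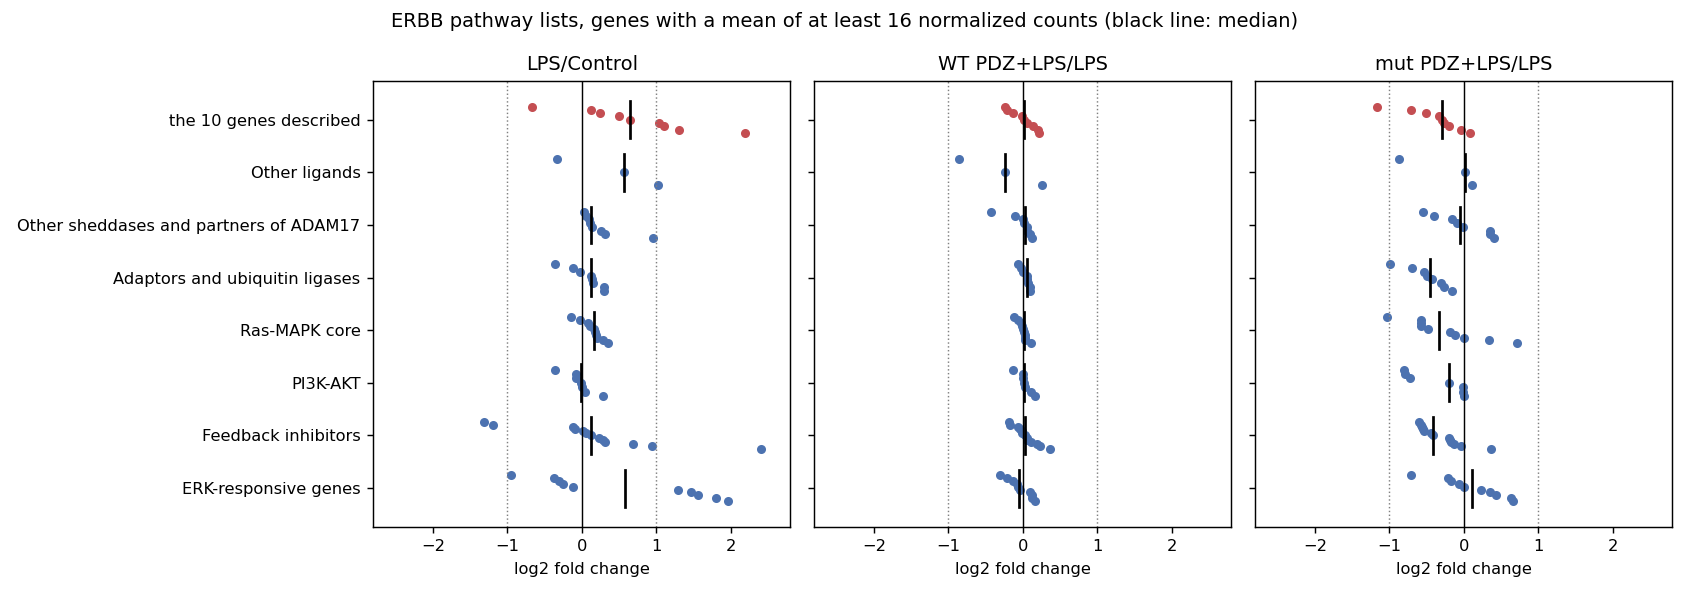
Log2 fold changes (x axis) of the 9 members averaging 16 normalized counts or more (red) and of 7 lists of other pathway genes (blue) in 3 comparisons, with a black line at each median and dotted lines at 2-fold. The members lay mostly to the right in LPS/Control (median 0.64), near 0 in WT PDZ+LPS/LPS (median 0.013) and mostly to the left in mut PDZ+LPS/LPS (median -0.30). The plotted values are not corrected for length, and the last median was -0.18 after the correction for length and GC content.

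For the 5 members averaging 200 normalized counts or more, the 3 genes nearest in pattern over the 4 libraries were found by the Euclidean distance between centred log2 values, among 9781 genes. For EGFR they were FAM160A1 (0.16), SLC7A2 (0.22) and AGO2 (0.30), with transcripts of 4576, 7638 and 14581 nt. FAM160A1 had 307, 569, 554 and 244 normalized counts, high in LPS and WT PDZ+LPS and low in Control and mut PDZ+LPS. For EREG they were ANKRD33B (0.16), ZC3H12C (0.16) and ATP2B1 (0.23), with transcripts of 9188, 9542 and 7032 nt. ADAM17 had much closer neighbours, HIPK3 (0.038), OTUD4 (0.04) and CDV3 (0.048), as did ERBB2 with ALAS1 (0.024) and ERRFI1 with RAB27A (0.05). With 4 libraries a small distance describes these values and nothing more.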

How the data were processed

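Poly(A) RNA of 4 BEAS-2B libraries was made into directional libraries and sequenced. Per the submitters' processing notes and the study's methods, the authors removed adapters, aligned to hg19 with TopHat and deposited unnormalized counts of reads on each gene symbol. The counting tool, the annotation and the strand setting are not given in the sources used here. Groups were taken from the sample labels.

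Size factors were computed from the deposited counts by the median of ratios (DESeq2 1.42.0, R 4.3.3) and lay between 0.851 (mut PDZ+LPS) and 1.15 (Control). DESeq2 and edgeR 4.0.16 were used for scaling only, and no model was fitted. Log2 fold changes used a pseudocount of 1. A change was called at 2-fold where either of the 2 libraries had 16 or more normalized counts (a log2 value of 4). Levels have 95% Poisson intervals and fold changes 95% exact binomial (Clopper-Pearson) intervals. These cover counting error only, since PCR copies of a molecule cannot be told from separate molecules here. A count of 0 was taken to allow up to 3 counts.

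Transcript lengths and GC content came from the longest protein-coding transcript in GENCODE 29 and were found for 12142 of 13072 genes averaging 16 normalized counts or more. The correction subtracted a lowess trend (span 0.3) over length and then over GC content, and intervals treat that trend as known. Promoter windows came from RefSeq (GRCh38.p14), with 9 of 10 members matched.

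The alternatives were scaling by TMM, by the upper quartile and by total counts, a pseudocount of 5, no level threshold or one of 6 on the log2 scale, fold thresholds of 1.5 and 3, and the correction. The members and lists were chosen with earlier results of these data known. All 10 members are named, and a pathway gene is named with values if it changed at least 2-fold in any comparison or is a ligand, receptor or sheddase. EGR1, FOS, DUSP4, ETV4, ETV5 and RHBDF2 were named after their values were seen. The value of 1 marker gene is not reported here. The 2-fold call, the intervals of fold changes and the length and GC correction were tested on simulated counts, and the other steps were not. Scripts ran in Python 3.11.15 with matplotlib 3.10.9, statsmodels 0.14.6, scipy 1.17.1, pandas 2.3.3 and numpy 2.4.6.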

Additional observations from a re-analysis of the deposited data

Results flagged for a closer look

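EREG moved in opposite directions in the 2 peptide libraries when each was set against LPS. The log2 fold change was 0.0572 with the WT peptide and -0.712 with the mutant. The difference was not tested, since each condition had 1 library, and both values share the LPS library. With transcript length and GC content corrected for, the values were 0.022 (-0.0071 to 0.051) and -0.51 (-0.54 to -0.47), so the first interval then included 0.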

How the results depend on the processing

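Under TMM scaling and a pseudocount of 5 all 60 member values in each setting moved by less than their counting interval. Over all alternatives 300 member values did so and 75 did not, of which 14 came with total-count scaling, 8 with upper-quartile scaling and 16 with the correction for length and GC content. With total-count scaling the median of all genes was -0.13 in LPS/Control and -0.12 in each of the other comparisons with Control, in place of -0.001, 0.01 and -0.018, and 2 members passed 2-fold in LPS/Control in place of 4. In mut PDZ+LPS/Control that scaling left the count at 3, with ERBB3 (-1.03) in place of HBEGF (0.98). With a threshold of 3-fold, 1 member passed in LPS/Control and 1 with the WT peptide against Control, while the mutant peptide library had 0 against Control, 0 against LPS and 0 against WT PDZ+LPS. With 1.5-fold, 5 members passed in WT PDZ+LPS/Control, and the mutant peptide library had 2 against LPS and 2 against WT PDZ+LPS. The share of all genes was counted at 2-fold only, so the counts at 3-fold and 1.5-fold have no background beside them. Without the level threshold 1 member (BTC) passed in WT PDZ+LPS/LPS in place of 0. The length and GC correction left 0 members in mut PDZ+LPS/LPS, and between the peptide libraries 0 members and 1 pathway gene in place of 3. Correcting with length alone, coding length or median transcript length was chosen after the data were seen, and EGFR in mut PDZ+LPS/Control was positive under each (0.26, 0.21 and 0.12). ERBB2 in mut PDZ+LPS/WT PDZ+LPS turned from -0.20 to 0.0037 with length alone. Summing AREG with a listed copy was not run, since no such symbol was listed. No paired analysis was possible because each condition had 1 library, and for the same reason no library could be left out. The low counts of BTC, TGFA and HBEGF limit what their values can show.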
